A study of Mus musculus with 16 samples.

Results

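A set of 10 genes of the NRF2 and antioxidant defence system were followed in the brains of aged mice given the peptide adropin(34-76) or its diluent. They were taken by symbol from the deposited count table, which held 10 of 10 listed genes among 40481 genes. The list has the transcription factor gene Nfe2l2, which encodes NRF2, and 9 genes of enzymes that handle heme, quinones, glutathione, thioredoxin, superoxide or hydrogen peroxide. All 10 passed the filter on low counts, more than 1 CPM (reads per gene scaled to the library total) in at least 7 mice.

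The mice were male C57BL animals (substrain C57BL/6J in the methods of the study) bought at 18 months of age and belonged to weight-matched groups. Of the 16 sequenced mice, 8 had received adropin(34-76) at 90 nmol/kg/d by intraperitoneal injection over 4 weeks, and 8 had received the saline diluent alone. The peptide was suspended in saline with bovine serum albumin, and the labels do not say separately whether the control injections held albumin. They were selected from a larger behavioural cohort, they carried no transgene, and the labels say brain without naming a region. Adropin is a secreted peptide encoded by Enho and abundant in brain, and the comparison asks how its administration affects the transcriptome of the aging brain.

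NRF2 is held at a low level in resting cells because KEAP1, an adaptor of a CUL3 ubiquitin ligase, directs it to the proteasome. Oxidants and electrophiles modify KEAP1, NRF2 then accumulates in the nucleus, and with small MAF proteins it binds antioxidant response elements near its target genes. Hmox1, Nqo1, Gclc, Gclm, Txnrd1 and Srxn1 are textbook NRF2 targets, whereas Sod1, Sod2 and Cat encode enzymes that remove superoxide and hydrogen peroxide and are present at high basal levels in most tissues. In brain, NRF2 activity is best known from astrocytes, which supply neighbouring neurons with glutathione precursors.

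The core of the antioxidant response element was sought as TGACNNNGC on both strands in the 250 bases before each transcript start, using the RefSeq promoter table on GRCm38.p6. It is shown because it is the feature by which NRF2 recognises its targets. Of the 10 genes, 8 had a window in the table, and 4 of these held a match. Among all genes with a window 11.5% held one, as did 10.2% of all windows. Each sequence below is given 5' to 3' on the strand of the gene with 10 flanking bases on each side, and the capitals mark the core or, where the core lies on the opposite strand, its reverse complement.
Nfe2l2, chr2:75704885-75704913, minus strand: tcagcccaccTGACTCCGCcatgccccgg
Gclm, chr3:122245413-122245441, plus strand: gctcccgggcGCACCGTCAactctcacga
Txnrd1, chr10:82859104-82859132, plus strand: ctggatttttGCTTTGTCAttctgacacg
Sod1, chr16:90220696-90220724, plus strand: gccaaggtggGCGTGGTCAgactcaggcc
The first capital base lies 240 bases before the start of Nfe2l2, 134 before that of Gclm, 92 before a start of Txnrd1 and 56 before that of Sod1. Txnrd1 had 3 windows, and the match lies in 1 of them, at a start within the gene. These letters were not in the 250 bases searched for Nqo1, Srxn1, Sod2 and Cat, and elements farther from a start were not sought. Hmox1 and Gclc had no window. A match is a stretch of letters and was not measured as a binding site.

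On GRCm38 the genes lie on 7 chromosomes. Nfe2l2 spans chr2:75675513-75704641, Srxn1 chr2:152105516-152111376 and Cat chr2:103453849-103485160. Gclm lies at chr3:122245557-122270732, and its annotation overlaps Gm17494 on the opposite strand, which had 1656 counts over all mice against 25572 for Gclm. The protocol names no step that marks strand, so reads of the shared stretch cannot be assigned to either gene, and how many Gclm lost there was not measured. Hmox1 is at chr8:75093621-75100589, Nqo1 at chr8:107388225-107403206 and Gclc at chr9:77754535-77794485. Txnrd1 is at chr10:82833951-82897712, Sod1 at chr16:90220754-90226329 and Sod2 at chr17:13006846-13040063.

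Library totals lay between 35026503 and 70314050 counts, with no detectable difference between groups (two-sided exact permutation test on log2 totals, p = 0.452). Neuronal, astrocytic and oligodendrocytic markers were abundant in the mice, for example Snap25 from 2270 to 3451 CPM after normalisation by TMM size factors and Slc1a2 from 1297 to 2904 CPM. Saline-treated mouse 8_3 stood apart, with transthyretin (Ttr), a choroid plexus gene, at 2398 CPM against a median of 11.8 CPM, and Gabra6, a cerebellar granule cell gene, at 34.9 CPM against a median of 0.0426 CPM. Results that turn on this mouse are given with and without it.

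The 10 genes differed widely in level per length. The mean over the 16 mice of TMM-normalised CPM per kilobase of the principal transcript was 391 ± 58.1 (SD, n = 16) for Sod1, the cytosolic copper-zinc superoxide dismutase. Sod2, the mitochondrial manganese enzyme, followed at 30.4 ± 1.74 and Srxn1 at 27.8 ± 2.03 CPM per kilobase, with overlapping ranges. Catalase (Cat) was at 16 ± 1.17, Gclc at 13.8 ± 1.23 and Txnrd1 at 11 ± 1.2 CPM per kilobase, and the range of Gclc overlapped those of Cat and Txnrd1. Gclm was at 6.55 ± 0.542 CPM per kilobase, below Txnrd1 in range. The lowest levels were those of Nfe2l2 at 5.01 ± 0.454, Hmox1 at 2.81 ± 0.504 and Nqo1 at 2.31 ± 0.493 CPM per kilobase, and neighbours among these overlapped. Length matters most for Sod1, whose principal transcript has 641 bases and whose annotated exons together have 3970. Per kilobase of all annotated exons, Sod1 was still first, at 63.2 ± 9.39 CPM, Srxn1 came before Sod2, and Gclm came before Txnrd1.

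No difference between adropin and saline passed the test for any of the 10 genes. At an unadjusted p below 0.05, 0 of 10 genes were called by edgeR's quasi-likelihood test, where 3.99% of the 14949 genes tested were called, 596 in all. After Benjamini-Hochberg adjustment over all genes, 0 of 10 and 0% of all genes were called, and the smallest adjusted p of any gene was 0.387. DESeq2 called 5 genes at an adjusted p below 0.05, none of them among the 10. The log2 fold change was below 0 for 7 of 10 genes, against 50.8% of all genes, and its median was -0.006 over the 10 genes. In each of the 10, the ranges of the groups overlapped, as the plot of levels by mouse shows.

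**Figure D1:**
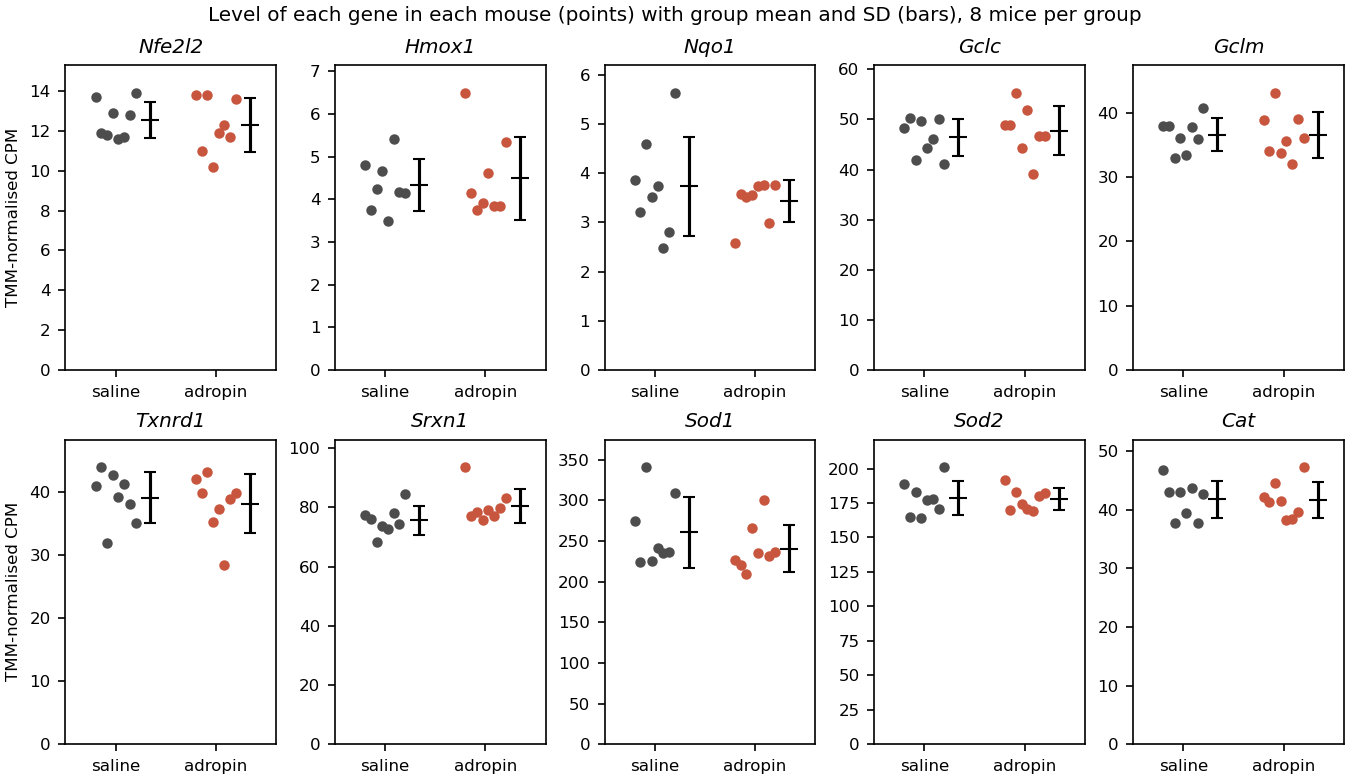
TMM-normalised CPM (vertical axes, each starting at 0) of the 10 genes in saline-treated (grey) and adropin-treated (red) mice, 1 point per mouse, with the mean and SD of 8 mice as bars. The groups overlap in each panel, and adropin-treated mouse 1_3 is the highest point for Srxn1 (93.6 CPM) and Hmox1 (6.49 CPM).

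The difference in Nfe2l2 transcript was small beside the spread between mice. TMM-normalised CPM ranged from 10.2 in mouse 3_3 to 13.8 in mouse 2_4 with a median of 12.1 under adropin, and from 11.6 in mouse 6_2 to 13.9 in mouse 8_3 with a median of 12.3 under saline. The lowest mouse was adropin-treated and the highest saline-treated, and all saline-treated mice but the highest lay within the adropin range. The means were 12.3 ± 1.34 and 12.5 ± 0.932 CPM (SD, n = 8 each), and the log2 fold change was -0.03 (SE 0.073, 95% interval -0.18 to 0.12, edgeR adjusted p = 0.932). NRF2 is regulated mainly through protein stability and place in the cell, neither of which was measured.

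Hmox1 encodes the inducible heme oxygenase, which breaks heme down to biliverdin, iron and carbon monoxide. Its level ranged from 3.74 to 6.49 CPM with a median of 4.02 under adropin, and from 3.48 to 5.41 CPM with a median of 4.2 under saline. Adropin-treated mouse 1_3 was the highest of the 16, and without it the fold change turned from above to below 0. The log2 fold change was 0.05 (SE 0.127, 95% interval -0.21 to 0.32, edgeR adjusted p = 0.929), and -0.039 without mouse 1_3.

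Nqo1 encodes a quinone reductase that spares cells the semiquinone radical. Its level ranged from 2.58 to 3.75 CPM with a median of 3.56 under adropin, and from 2.48 to 5.63 CPM with a median of 3.63 under saline. The saline-treated mice were more spread, and mouse 8_3 was their highest. The log2 fold change was -0.13 (SE 0.148, 95% interval -0.44 to 0.18, edgeR adjusted p = 0.879), and -0.015 without mouse 8_3. Nqo1 had the lowest counts of the 10, from 92 to 260 per mouse, and the widest interval. Its SD within groups was 0.298 on the log2 scale, of which counting error alone would give 0.119.

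Gclc and Gclm encode the catalytic and the modifier subunit of glutamate-cysteine ligase, the rate-limiting enzyme of glutathione synthesis. Gclc ranged from 39.2 to 55.3 CPM with a median of 47.9 under adropin, and from 41.1 to 50.2 CPM with a median of 47.2 under saline. Gclm ranged from 32 to 43.1 CPM with a median of 35.9 under adropin, and from 33 to 40.8 CPM with a median of 37 under saline. For both subunits mouse 4_3 was the lowest and mouse 2_4 the highest of the adropin-treated mice, and in both the saline range lay within the adropin range. The log2 fold change was 0.04 for Gclc (SE 0.067, edgeR adjusted p = 0.905) and -0.0033 for Gclm (SE 0.064, edgeR adjusted p = 0.994). The 95% intervals of the fold change were 0.932 to 1.13 for Gclc and 0.909 to 1.09 for Gclm.

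Txnrd1 encodes the cytosolic thioredoxin reductase, a selenoprotein that keeps thioredoxin reduced. Its level ranged from 28.5 to 43.3 CPM with a median of 39.4 under adropin, and from 31.9 to 44 CPM with a median of 40.1 under saline. Mouse 4_3 was the lowest under adropin and mouse 5_4 the lowest under saline. The log2 fold change was -0.036 (SE 0.082, 95% interval -0.21 to 0.13, edgeR adjusted p = 0.927).

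Srxn1, which encodes sulfiredoxin, the enzyme that restores over-oxidised peroxiredoxins, had the smallest p of the 10. Its level ranged from 75.6 to 93.6 CPM with a median of 78.8 under adropin, and from 68.3 to 84.7 CPM with a median of 75.1 under saline. All 8 adropin-treated mice lay above the saline median, and saline-treated mouse 8_3 lay above each of them but mouse 1_3. The means were 80.5 ± 5.78 and 75.6 ± 4.78 CPM (SD, n = 8 each), and the log2 fold change was 0.09 (SE 0.053, edgeR unadjusted p = 0.105, adjusted p = 0.874; two-sided exact permutation p = 0.0749). This is a fold change of 1.06, with a 95% interval from 0.986 to 1.15. Without mouse 8_3 the log2 fold change was 0.12 with an unadjusted p of 0.0382 and an adjusted p of 0.994 by edgeR.

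The superoxide dismutases and catalase also stayed within the spread between mice. Sod1 ranged from 210 to 301 CPM with a median of 234 under adropin, and from 224 to 341 CPM with a median of 239 under saline. Mice 5_4 and 8_3 under saline and mouse 4_3 under adropin were the 3 highest. Its log2 fold change was -0.11 (SE 0.095, 95% interval -0.31 to 0.085, edgeR adjusted p = 0.874), and it moved to -0.05 without mouse 5_4 and to -0.16 without mouse 4_3. Sod2 ranged from 169 to 192 CPM with a median of 177 under adropin, and from 164 to 201 CPM with a median of 178 under saline. Cat, whose product splits hydrogen peroxide, ranged from 38.3 to 47.3 CPM with a median of 41.4 under adropin, and from 37.7 to 46.8 CPM with a median of 42.9 under saline. For these genes the log2 fold change was -0.0072 (SE 0.05, 95% interval -0.11 to 0.098, edgeR adjusted p = 0.982) and -0.0055 (SE 0.058, 95% interval -0.13 to 0.12, edgeR adjusted p = 0.989). As fold changes these intervals run from 0.925 to 1.07 for Sod2 and from 0.915 to 1.08 for Cat.

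**Figure D2:**
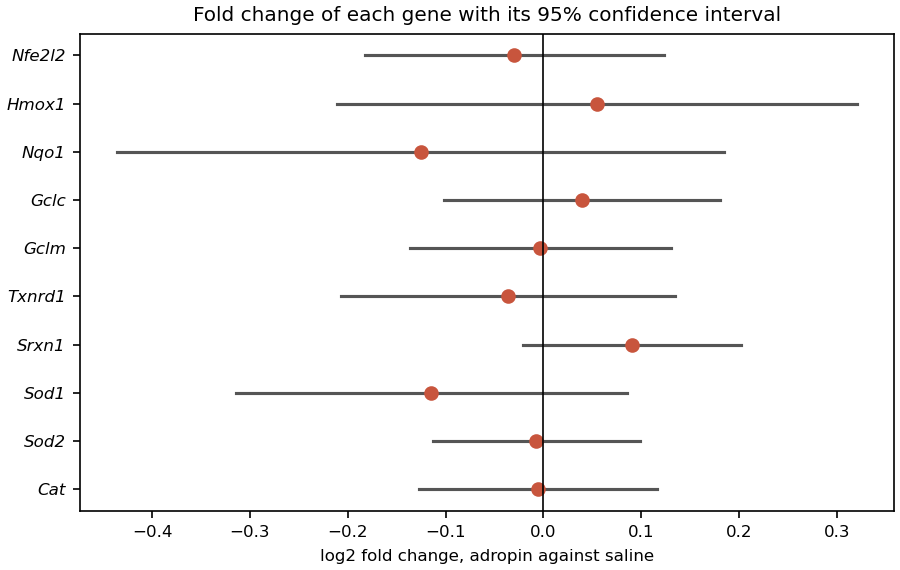
Log2 fold change of each gene, adropin against saline (horizontal axis), from edgeR's quasi-likelihood fit on 8 mice per group, with lines for the 95% confidence interval. The 10 intervals include 0, and those of Nqo1 (-0.44 to 0.18) and Hmox1 (-0.21 to 0.32) are the widest.

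The wider pathway, 83 genes in 6 lists of which 81 could be tested, gave calls at about the share of all genes. At an unadjusted p below 0.05, 1 gene was higher and 2 were lower in adropin-treated mice, 3 of 81 where 3.99% of all genes were called. None passed the adjustment over all genes, the smallest adjusted p being 0.874. The median log2 fold change over these genes was -0.047, and 55 of 81 were below 0, against 50.8% of all genes.

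Among the 12 genes of NRF2 control, no gene was called. Keap1, the repressor of NRF2, ranged from 61.3 to 68.4 CPM under adropin and from 58.3 to 67.7 CPM under saline (log2 fold change 0.009, SE 0.045). Bach1, which competes with NRF2 at response elements, ranged from 7.45 to 14.3 CPM and from 7.61 to 12.2 CPM (0.10, SE 0.124). These repressors were picked for their role after their values were seen. The smallest p-values of the list were those of the ubiquitin ligase subunit Btrc (log2 fold change 0.11, unadjusted p = 0.138), the NRF2 relative Nfe2l1 (0.11, 0.168) and the KEAP1 partner Dpp3 (0.05, 0.3), all by edgeR with adjusted p between 0.874 and 0.876.

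In the glutathione list, 1 of 20 genes was higher and 1 lower at an unadjusted p below 0.05, beside 3.99% of all genes. Slc7a11, the cystine importer that feeds glutathione synthesis, ranged from 29.4 to 44.5 CPM with a median of 38.6 under adropin, and from 23 to 39.3 CPM with a median of 30.1 under saline. Most adropin-treated mice lay above the saline median, and the ranges overlapped. Its log2 fold change was 0.28 (SE 0.124, edgeR unadjusted p = 0.0367, adjusted p = 0.874; two-sided exact permutation p = 0.0561). Gstm1 encodes a glutathione transferase with close paralogs, and reads that aligned to several of them were not counted. Its mean was 237 ± 20.1 CPM under adropin and 261 ± 24.8 CPM under saline (SD, n = 8 each; log2 fold change -0.14, edgeR unadjusted p = 0.0466, adjusted p = 0.874). Mgst1, a membrane-bound transferase, came next with a log2 fold change of -0.29 (edgeR unadjusted p = 0.1, adjusted p = 0.874).

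No gene was called among the 18 thioredoxin and peroxiredoxin genes. The smallest p-values were those of Sesn3, a sestrin (log2 fold change 0.42, SE 0.236), Prdx1, an NRF2-responsive peroxiredoxin (-0.14, SE 0.082), and the methionine sulfoxide reductase gene Msra (-0.10, SE 0.072). No gene was called either among 6 partners of the superoxide and peroxide enzymes, where Ucp2 (-0.22, SE 0.151), Selenop (-0.09, SE 0.077) and the extracellular dismutase gene Sod3 (-0.12, SE 0.13) had the smallest p-values. Among 15 tested genes of NADPH supply and quinone reduction, Ugdh, which makes UDP-glucuronate, was lower, at 19.7 ± 1.12 CPM under adropin and 21.4 ± 1.42 CPM under saline (SD, n = 8 each; log2 fold change -0.11, edgeR unadjusted p = 0.0496, adjusted p = 0.874). Blvrb (-0.18, SE 0.123) and Nqo2 (-0.09, SE 0.077) followed in that list. Of the 10 tested genes of heme and iron handling, none was called, and the ferritin heavy chain gene Fth1 (-0.15, SE 0.116), Fech (0.08, SE 0.059) and Trf (-0.25, SE 0.239) had the smallest p-values.

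Between mice of the same group the 10 genes did not vary as 1 block. Log2 levels were centred on each group mean, and the 45 pairs were compared over 16 mice by Pearson's r with 100000 shuffles within groups. The median r was 0.302, and 30 pairs were above 0 and 15 below. At an absolute r above 0.6 there were 10 pairs, 22.2% of the 45, where 17.9% of the pairs formed by 748 evenly drawn genes with all genes tested reached it. Those pairs of genes had a median r of 0.001. After adjustment over the 45 pairs 3 were past 0.05, and 15 were past an unadjusted 0.05.

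**Figure D3:**
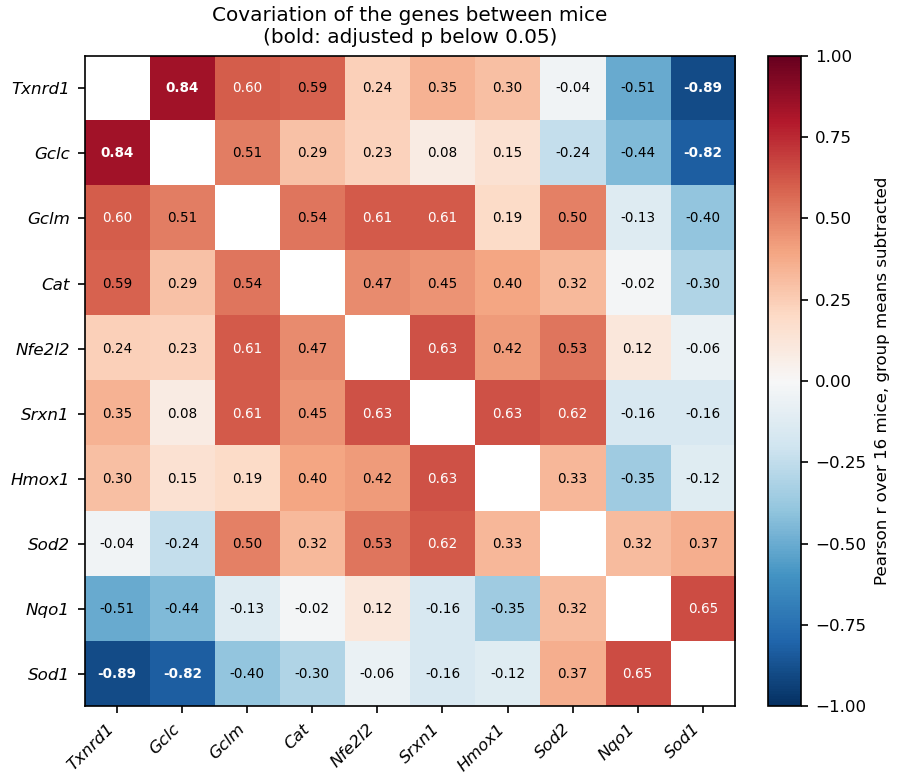
Pearson's r between the log2 levels of each pair of the 10 genes over 16 mice with group means subtracted (red above 0, blue below 0), with adjusted permutation p below 0.05 in bold. Txnrd1 and Gclc go together (0.839) and both go against Sod1 (-0.892 and -0.824).

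The 3 pairs joined Sod1, Txnrd1 and Gclc. Mice with more Sod1 transcript had less Txnrd1 (r = -0.892, permutation p = 3e-05, adjusted p = 0.00135; Spearman's rho = -0.776, adjusted p = 0.0294), with r = -0.96 among adropin-treated and -0.887 among saline-treated mice. They also had less Gclc (r = -0.824, adjusted permutation p = 0.00247; rho = -0.741, adjusted p = 0.0294), with r = -0.92 and -0.798 within the groups. Gclc and Txnrd1 rose and fell together (r = 0.839, adjusted permutation p = 0.00375; rho = 0.688, adjusted p = 0.0451), with r = 0.863 and 0.802 within the groups. Without the 2 mice farthest from the median of Txnrd1, or of Gclc in the pairs that hold it, r was -0.783 for Txnrd1 with Sod1, -0.765 for Gclc with Sod1 and 0.708 for Gclc with Txnrd1.

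Mice 5_4, 8_3 and 4_3 were the highest for Sod1, and the pairs were compared again without them. Among the 13 other mice r was -0.668 for Txnrd1 with Sod1 (adjusted permutation p = 0.203), -0.581 for Gclc with Sod1 (0.229) and 0.549 for Gclc with Txnrd1 (0.255), so that none of the 3 passed the adjustment. Leaving out the highest mice for Sod1 narrows its range, which can itself lower r. These values therefore do not show that the relations rest on the 3 mice. Mice 5_4, 8_3 and 4_3 were also the highest on the first principal component of all genes tested, which held 34.1% of the variance and did not differ detectably between groups (two-sided exact permutation p = 0.268). Over 16 mice the component had r = 0.94 with Sod1, -0.932 with Txnrd1 and -0.835 with Gclc (adjusted permutation p = 0.0002, 0.0002 and 0.0005 over 30 relations). Nqo1 had r = 0.642 with it (adjusted p = 0.0479), and the 6 other genes had no adjusted p below 0.05. With the component regressed out, r was -0.126, -0.211 and 0.306 for the 3 pairs, and 0 of 45 pairs passed.

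Sod1 followed the genes of ribosomal proteins closely. Its r with the mean z-score of 84 ribosomal protein genes was 0.985 over 16 mice (permutation p = 1e-05, the smallest the permutations can give; rho = 0.962). It was 0.966 and 0.995 within the adropin and saline groups, and 0.937 over the 13 mice left when 5_4, 8_3 and 4_3 were set aside (permutation p = 0.00018). The single ribosomal protein genes had r with Sod1 from 0.452 to 0.992, with a median of 0.958. Txnrd1 and Gclc ran opposite to the ribosomal protein score (r = -0.871 and -0.843, adjusted permutation p = 0.00045 and 0.0005), and more weakly over the 13 mice (-0.604 and -0.641). Uniquely aligned reads of ribosomal protein genes are uncertain, because these genes have many near-identical pseudogenes.

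**Figure D4:**
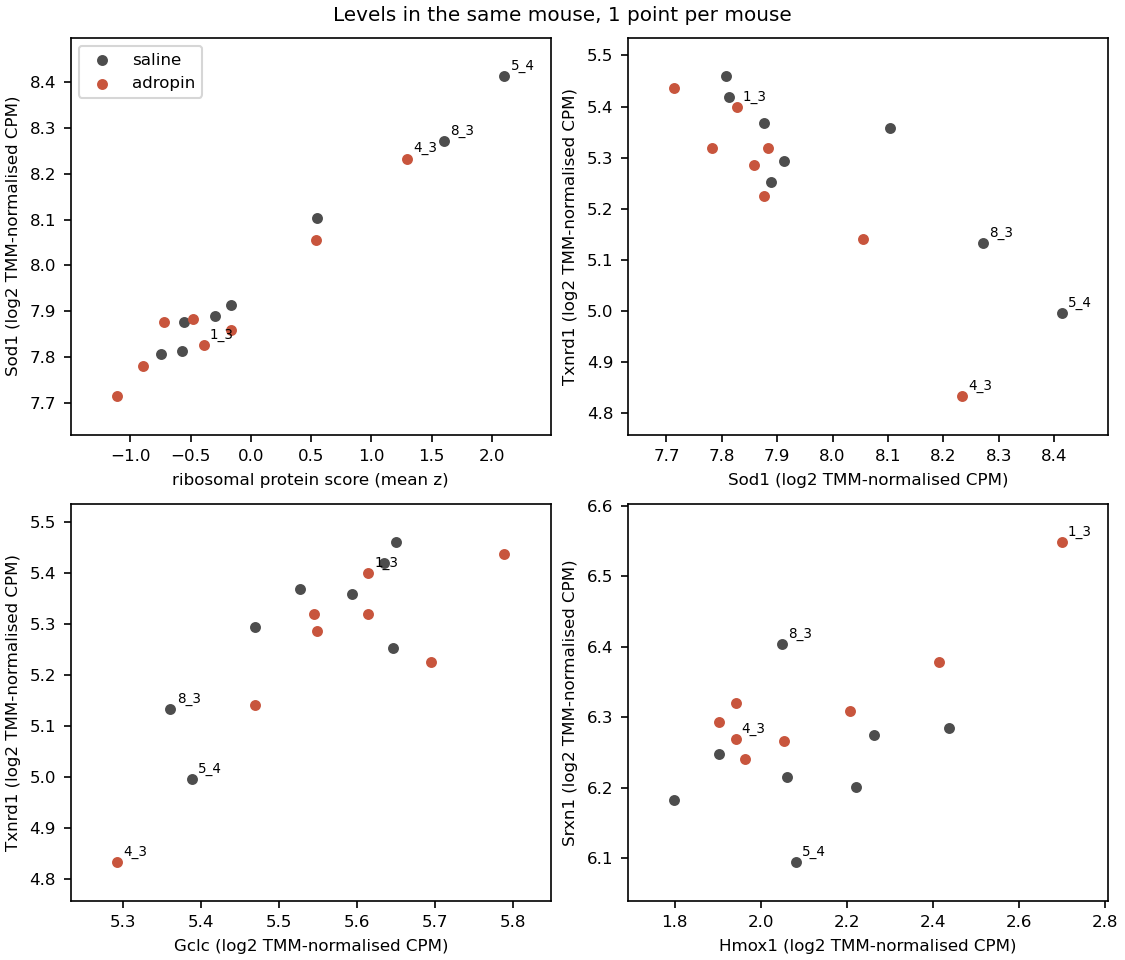
Levels in single mice (1 point per mouse, grey saline, red adropin), on log2 axes of TMM-normalised CPM and, in the first panel, against the ribosomal protein score (mean z). Sod1 rises with the score (r = 0.985), Txnrd1 falls as Sod1 rises with 4_3, 5_4 and 8_3 at the far end, Gclc and Txnrd1 rise together, and mouse 1_3 stands apart for Hmox1 and Srxn1.

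Genes were also ordered by transcript length along this axis. Over 13570 genes with a principal transcript, Spearman's rho between a gene's length and its r with Sod1 was -0.627, a description across genes that share the same libraries. The 1000 genes with the highest r to Sod1 had a median length of 1244 bases, and the 1000 with the lowest had 5607 bases. For Txnrd1 and Gclc the order was opposite, with rho = 0.601 and 0.603 and medians of 5455 and 5068 bases among their 1000 highest. Values for the other genes were mixed. Nqo1 (1553 bases) had rho = -0.598 but Hmox1 (1569 bases) had 0.243, and of the longest, Sod2 (5861 bases) had -0.345 and Gclm (5589 bases) 0.447. Cat had 0.394, Srxn1 0.225 and Nfe2l2 0.066. The part of transcript length or RNA quality in the covariation of these genes was not tested.

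Pairs of NRF2 transcript with its textbook targets did not pass the adjustment. Nfe2l2 had r = 0.634 with Srxn1 (adjusted permutation p = 0.0892), 0.61 with Gclm (0.0892) and 0.532 with Sod2 (0.0903), none past the adjustment. It had r = 0.424 with Hmox1, 0.228 with Gclc, 0.239 with Txnrd1 and 0.117 with Nqo1 (adjusted permutation p from 0.286 to 0.71). Srxn1 had r = 0.61 with Gclm and 0.617 with Sod2 (both adjusted permutation p = 0.0892). By Spearman's rho, 6 pairs passed, the 3 above together with Gclm and Srxn1 (rho = 0.738), Nqo1 and Sod1 (0.738) and Txnrd1 and Cat (0.7), with adjusted permutation p from 0.0294 to 0.0451. Regressing out the first component left r = 0.621 for Nfe2l2 with Srxn1, 0.626 for Nfe2l2 with Gclm and 0.717 for Srxn1 with Sod2 (adjusted permutation p = 0.119, 0.119 and 0.0862).

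The subunits of glutamate-cysteine ligase were only loosely coupled over the 16 mice. Gclc and Gclm had r = 0.512 (adjusted permutation p = 0.165), 0.754 among adropin-treated and 0.087 among saline-treated mice, a difference that was not tested. Without mouse 8_3, which was the lowest saline-treated mouse for Gclc and the highest for Gclm, r was 0.749 (adjusted permutation p = 0.0273). Leaving out 8_3 raised the number of pairs past the adjustment to 8, adding Gclm with Txnrd1 (0.774) and Sod1 (-0.62), Hmox1 with Srxn1 (0.769) and Nqo1 with Srxn1 (-0.67). Without mouse 2_4 it was 5 pairs, adding Nfe2l2 with Srxn1 (0.729) and Gclm with Srxn1 (0.821).

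Hmox1 and Srxn1 were both highest in mouse 1_3. They had r = 0.634 over 16 mice (adjusted permutation p = 0.0892), 0.911 among adropin-treated and 0.222 among saline-treated mice, and 0.317 without the 2 mice farthest from the Hmox1 median. Mouse 1_3 also had the deepest library, 70314050 counts, and the highest neuron score. Log2 total counts had r = 0.635 with Srxn1 (adjusted permutation p = 0.0529) and 0.357 with Hmox1 (0.373).

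Sod1 and Sod2, the cytosolic and mitochondrial dismutases, did not pass the adjustment as a pair over all mice (r = 0.366, adjusted permutation p = 0.366), with r = -0.487 among adropin-treated and 0.768 among saline-treated mice. Nqo1 and Sod2 likewise had r = -0.742 and 0.672 within the groups and 0.319 over all mice. With mouse 8_3 left out r was 0.191 for Sod1 with Sod2 and -0.073 for Nqo1 with Sod2, and the differences between groups were not tested. With the first component regressed out r was 0.634 for Sod1 with Sod2 (adjusted permutation p = 0.129) and 0.285 for Nqo1 with Sod2 (0.462). Subtracting the means of mice that share the first number of their label gave 0.678 and 0.704.

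Scores of 12 marker lists, the mean z-score of each list in a mouse, were set beside the 10 genes. In whole tissue, fewer cells of a type and less RNA per cell cannot be told apart. Of 120 relations, 0 had an adjusted permutation p below 0.05, and the smallest adjusted p was 0.0546. The astrocyte score had r = 0.738 with Gclm, 0.735 with Cat and 0.643 with Txnrd1 (adjusted permutation p = 0.0546, 0.0546 and 0.0796). The neuron score had r = 0.743 with Sod2, 0.729 with Srxn1 and 0.672 with Hmox1 (adjusted permutation p = 0.0546, 0.0575 and 0.0796). The mural cell score had r = 0.653 with Nfe2l2, 0.68 with Srxn1 and 0.634 with Gclm (adjusted permutation p = 0.0546, 0.0546 and 0.0575). Mouse 8_3 was the highest for this score, and without it these values were 0.604, 0.557 and 0.555 (adjusted permutation p = 0.131, 0.166 and 0.166). The endothelial score had r = 0.67 with Srxn1 (adjusted permutation p = 0.0575), and 0.73 without 8_3 (0.0714).

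**Figure D5:**
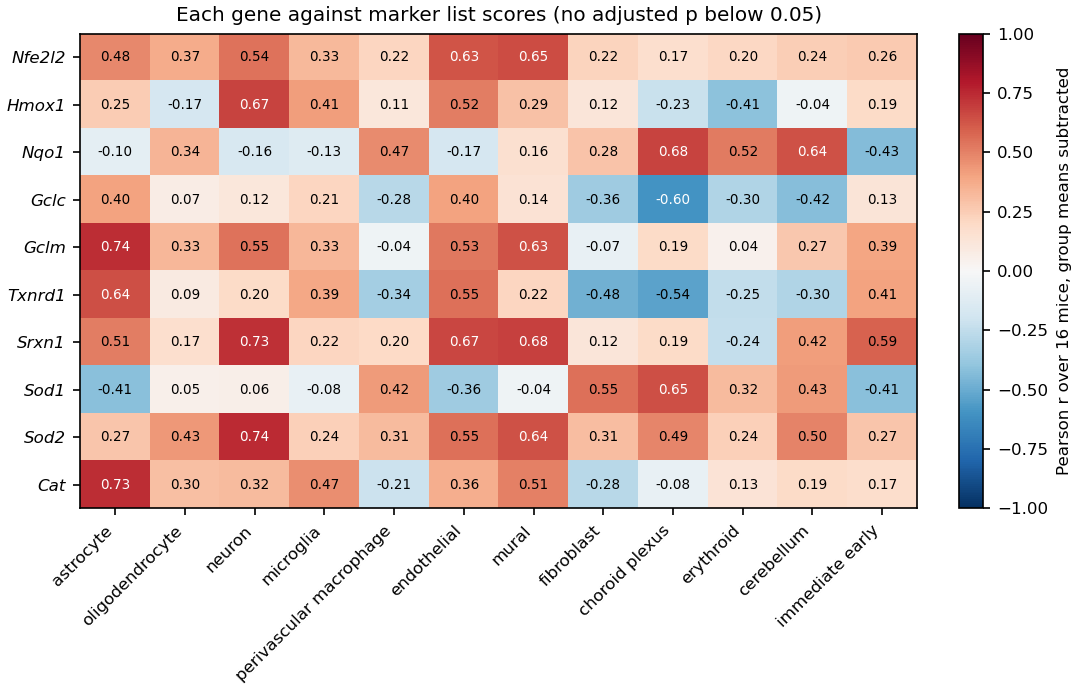
Pearson's r of each gene (vertical axis) with the score of each marker list (horizontal axis) over 16 mice with group means subtracted, red above 0 and blue below 0. The highest values are those of Sod2 with the neuron score (0.743) and Gclm with the astrocyte score (0.738), and no adjusted p was below 0.05.

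The choroid plexus score was highest in mouse 8_3. It had r = 0.675 with Nqo1 (0.384 without 8_3), 0.648 with Sod1 (0.666 without 8_3) and -0.601 with Gclc (-0.582 without 8_3), the last with an adjusted permutation p of 0.0546. This score ranged from -0.8 to 0.392 under adropin and from -0.487 to 2.856 under saline (two-sided exact permutation p = 0.0413, adjusted over the 12 scores 0.248; p = 0.0774 without 8_3). Of its 5 tested genes 5 had an unadjusted p below 0.05 by edgeR, beside 3.99% of all genes. Without 8_3 it was 2, beside 414 of 14949 genes. The immediate early score, of genes that respond to neuronal activity, ranged from -1.605 to 0.692 under adropin and from -0.857 to 1.252 under saline (two-sided exact permutation p = 0.00995, adjusted over the 12 scores 0.119). Of its 10 genes 8 had an unadjusted p below 0.05 by edgeR, again beside 3.99% of all genes. Without 8_3 it was 7, beside 414 of 14949 genes. The study had already reported Fos, Fosb, Junb and Dusp1 of this list as responding to adropin in this experiment. These counts and the p of the score are therefore no independent support. The immediate early score had r = 0.59 with Srxn1 (adjusted permutation p = 0.158). With the first component regressed out of genes and scores, 10 relations passed, among them Sod2 (0.803), Sod1 (0.75) and Srxn1 (0.716) with the neuron score and Gclm with the choroid plexus score (0.788). None passed when mouse 8_3 was also left out, with r = 0.789, 0.732, 0.693 and 0.544 for these (adjusted permutation p = 0.0799, 0.0799, 0.0799 and 0.304). Over the 13 mice without 5_4, 8_3 and 4_3 the 1 relation that passed was Srxn1 with the neuron score (r = 0.838, adjusted permutation p = 0.042). The part of tissue makeup in the levels of the 10 genes was not tested.

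The genes most like each of the 10, by group-centred Pearson's r over 16 mice, came from different families. For Sod1 they were the ribosomal protein genes Rpl21 (0.992), Rps29 (0.987) and Rps16 (0.986). Txnrd1 was nearest to Lgi2 (0.964) and the potassium channel gene Kcnc2 (0.958), and Gclc to Hectd2 (0.931), Tmem168 (0.925) and Nupl1 (0.917). Gclm had Mindy2 (0.907) and Tmem126b (0.883) nearest to it, and Srxn1 had F11r (0.9), Tuba8 (0.896) and Asph (0.884). Sod2 was nearest to Cxxc5 (0.943), Nudt3 (0.9) and the adenosine kinase gene Adk (0.896), and Cat to Gm12033 (0.849), Asrgl1 (0.836) and Rnf141 (0.805). The nearest genes were B4galt1 (0.848), Prkar1b (0.834) and Osmr (0.796) for Hmox1, and Ube2j1 (0.844), Hs3st1 (0.844) and Slbp (0.831) for Nfe2l2. Nqo1 was nearest to the pseudogenes Chchd2-ps (0.85) and Uqcrh-ps2 (0.848) and to Rasa4 (0.835). The 10 genes themselves were left out of this ranking.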

How the data were processed

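Poly-A-selected RNA from 16 brains was sequenced. Alignment by the authors used STAR and the mouse assembly of Ensembl release 76 (GRCm38). The deposited values are raw counts from featureCounts, which kept reads that aligned once and fell in a single gene. Repeated entries, 276 of 40757, were dropped. The deposited CPM table, the same counts scaled to library totals, was not used.

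TMM factors came from edgeR 4.0.16 under R 4.3.3, with all genes included. Genes above 1 CPM in at least 7 mice were kept, following the filter of the study, 355 annotated ribosomal RNA genes were removed, and 14949 genes were compared by the quasi-likelihood test with Benjamini-Hochberg adjustment. The study used limma, which is an alternative here. Single genes were also compared by a two-sided exact permutation test over 12870 divisions of the mice. Covariation used log2 TMM-normalised CPM (prior count 2), group means subtracted, 100000 shuffles within groups and adjustment over the 45 pairs, 120 marker relations or 30 relations with the first component, ribosomal protein score and log2 total. Positions and lengths came from GENCODE on GRCm38, and promoter windows from RefSeq. Each mouse is 1 replicate, and libraries are named by the number pair in their label, whose meaning is not given.

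The members and lists were chosen with earlier results of these data known. The text names all 10 members, the pathway genes past an unadjusted p of 0.05 or else the 3 smallest p-values of a list, the 3 most similar genes per member, and markers of leading level. Gabra6 is an exception, because other genes of its marker list reached higher levels. The results for 2 genes are not reported here. Alternatives were limma-voom 3.58.1, DESeq2 1.42.0, 1 surrogate variable (sva 3.50.0), other size factors and filters, label numbers as blocks, Spearman's rho, another prior count and leaving out each mouse. Regressing out the first component, leaving out 3 mice at once, subtracting label-number means from the pairs, and each alternative for the marker scores and lists were added after seeing the data. The test and the shuffles were checked on simulated data. Totals from 35026503 to 70314050 counts give the 10 members counting errors that are smaller than the spread between mice.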

Additional observations from a re-analysis of the deposited data

Results flagged for a closer look

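Srxn1 in adropin-treated mouse 1_3 was at 93.6 TMM-normalised CPM, far above the next adropin-treated mouse at 83.2 CPM, a gap of 0.576 of the range of its group. The neuron score of the same mouse was 1.01 where the next was 0.32. The cerebellum score of saline-treated mouse 8_3 was 3.04 where the next saline-treated mouse had 0.373. These 3 values were the isolated ends of a group of 8 mice among 44 such groups examined, of which chance isolates about 2.2.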

How the results depend on the processing

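In the comparison of adropin with saline, 0 of 10 members had an unadjusted p below 0.05 under each alternative except 1 (Srxn1) without saline-treated mouse 8_3, so that leaving out a mouse gave 0 to 1. Genes at an adjusted p below 0.05 numbered 5 by DESeq2, 2 when mice were blocked by second label number, and 0 to 3 when a mouse was left out, 3 of them without adropin-treated mouse 5_5. Genes at an unadjusted p below 0.05 numbered 1902 without a filter, where 30210 genes were tested. They numbered 327 when mice were blocked by first label number, and 383 (without 2_4) to 1445 (without 4_3) when a mouse was left out. Of the members' fold changes under alternatives, 220 kept their direction and side of the threshold, 29 changed sign and 1 passed. Only 3 of the 8 first label numbers held mice of both groups, 8 mice in all. The contrast blocked by first label number, with its 327 genes, rests on those mice. Under that block the log2 fold change was -0.129 for Hmox1, 0.039 for Gclm and 0.008 for Txnrd1, all of the other sign, and -0.231 for Sod1 and -0.028 for Nqo1, and the cause was not tested. Leaving out a mouse moved it from -0.051 to 0.012 for Nfe2l2, -0.039 to 0.106 for Hmox1, -0.035 to 0.029 for Gclm, -0.074 to 0.022 for Txnrd1, -0.025 to 0.02 for Sod2, -0.033 to 0.017 for Cat, 0.012 (without 2_4) to 0.083 (without 4_3) for Gclc, -0.192 to -0.015 for Nqo1, 0.062 to 0.116 for Srxn1 and -0.16 to -0.05 for Sod1. Pairs past the adjustment numbered 6 by Spearman's rho, 0 with the first component regressed out, 0 with the 3 mice highest on it left out, and 3 to 8 when a mouse was left out. The median r over pairs ranged from 0.199 (without 5_4) to 0.332 when a mouse was left out. Relations with marker scores past the adjustment numbered 10 with the first component regressed out (0 without 8_3 as well), 1 without those 3 mice, and 0 to 2 when a mouse was left out. First label numbers took 8 values with 1 to 3 mice each, too few for r within them, and subtracting their means left r = -0.909 for Txnrd1 with Sod1, -0.869 for Gclc with Sod1 and 0.896 for Gclc with Txnrd1, but 0.391 for Nfe2l2 with Srxn1 and 0.064 for Hmox1 with Srxn1.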
